A study of Drosophila melanogaster with 12 samples.

Results

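The 37 genes carried by the mitochondrial genome were followed in RNA sequencing libraries from fly brains. They were chosen by symbol, as every gene in the count table whose symbol starts with mt:, and make up 37 of the 17562 genes listed. They comprise 13 protein-coding genes, 2 ribosomal RNA genes and 22 tRNA genes. Of these, 19 passed the filter on low counts and were tested (13 protein-coding, 2 ribosomal RNA and 4 tRNA genes). The other 18 are all tRNA genes, of which 10 had a count of 0 in every library and 8 had a few counts.

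The series compared the brains of male Drosophila melanogaster that expressed TDP-43, which binds RNA and forms aggregates in ALS, with brains of control flies. Each was combined with a hairpin against Atx2, the fly gene for the RNA-binding protein ataxin-2, or with a hairpin against mCherry, a fluorescent protein that flies lack. The 4 groups of 3 libraries were TDP-43 with Atx2 RNAi (TDP line 52s and hairpin stock BL44012), TDP-43 with mCherry RNAi (line 52s and stock BL35785), control with Atx2 RNAi (stock BL44012) and control with mCherry RNAi (stock BL35785). All 4 carried the daughterless-GeneSwitch driver (DaGS), which acts in most tissues when flies eat RU486, and all were on RU486 for 6 days after collection as adults at 1 to 2 days post eclosion. TDP-43 and control flies also differ in whatever else the strains do not share, and the transgene and the strain background cannot be told apart. Each hairpin likewise came in its own stock, so the hairpin and the stock background cannot be told apart in any comparison of Atx2 with mCherry RNAi. The labels call the 3 libraries of a group biological replicates and give no batch or date, so the p-values rest on the variation among libraries so labelled, which may be technical. Whether brains were pooled in a library is not given in these sources.

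The mitochondrial genome encodes core subunits of the respiratory chain (the ND subunits of complex I, Cyt-b of complex III, CoI to CoIII of complex IV and ATPase6 and ATPase8 of the ATP synthase), together with the large and small ribosomal RNAs (lrRNA and srRNA) and the tRNAs of the mitochondrial ribosome. Its 2 strands are transcribed as long precursors, tRNAs are cut out of them, and the mRNAs left between receive short A tails. In these brains some of the RNAs were very abundant and others were not. By counts among all genes, lrRNA ranked 1 in every library and CoI 3 to 4, while ATPase8 ranked 8737 to 10426.

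Totals ran from 29184618 to 45104293 counts per library, with 12227 to 13466 genes detected in each. Levels are in CPM, the usual depth-scaled count, taken here over the TMM-scaled library total, and p-values are adjusted by the Benjamini-Hochberg method over all 10738 genes tested with edgeR's quasi-likelihood test. A gene is called below an adjusted p of 0.05. Atx2 stood at 144 to 163 CPM in TDP-43 brains with Atx2 RNAi, against 267 to 304 CPM with mCherry RNAi, and at 152 to 165 CPM in control brains with Atx2 RNAi, against 343 to 363 CPM with mCherry RNAi. Its groups did not overlap by hairpin. TBPH, the fly's own TDP-43 gene, stood at 65.5 to 81.1 CPM in the 6 TDP-43 libraries and at 127 to 147 CPM in the 6 control libraries. The transgene's own transcript was not analysed here. Neuronal markers (elav, nSyb, brp and others, 6 in all) summed to 6691 to 6898 CPM in TDP-43 brains with Atx2 RNAi, 6587 to 6789 CPM in TDP-43 brains with mCherry RNAi, 6791 to 7277 CPM in control brains with Atx2 RNAi and 7241 to 7556 CPM in control brains with mCherry RNAi. No neuronal or glial marker of the lists was at 0 in all libraries.

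Mitochondrial genes took 7.06% ± 0.754 of all counts in TDP-43 brains with Atx2 RNAi, 8.83% ± 0.0882 in TDP-43 brains with mCherry RNAi, 8.41% ± 0.787 in control brains with Atx2 RNAi and 8.01% ± 0.632 in control brains with mCherry RNAi (SD, n = 3 each). The libraries ran from 6.27% to 7.78% in TDP-43 brains with Atx2 RNAi and from 8.74% to 8.91% in TDP-43 brains with mCherry RNAi, so these groups did not overlap. They ran from 7.72% to 9.26% in control brains with Atx2 RNAi and from 7.53% to 8.73% in control brains with mCherry RNAi, which overlapped. These sums over members are descriptions and carry no test.

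The rRNAs and the mRNAs did not follow the same order. The 13 protein-coding genes held 3.38% ± 0.252 of counts in TDP-43 brains with Atx2 RNAi, 3.33% ± 0.0146 in TDP-43 brains with mCherry RNAi, 3.81% ± 0.290 in control brains with Atx2 RNAi and 3.08% ± 0.188 in control brains with mCherry RNAi. The 2 rRNA genes held 3.68% ± 0.502 in TDP-43 brains with Atx2 RNAi, 5.49% ± 0.0791 in TDP-43 brains with mCherry RNAi, 4.60% ± 0.500 in control brains with Atx2 RNAi and 4.93% ± 0.445 in control brains with mCherry RNAi. The 22 tRNA genes together never exceeded 0.000895% of a library's counts. In bulk tissue, fewer cells of a type and less RNA per cell cannot be told apart, and a share can also move because nuclear counts move.

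**Figure D1:**
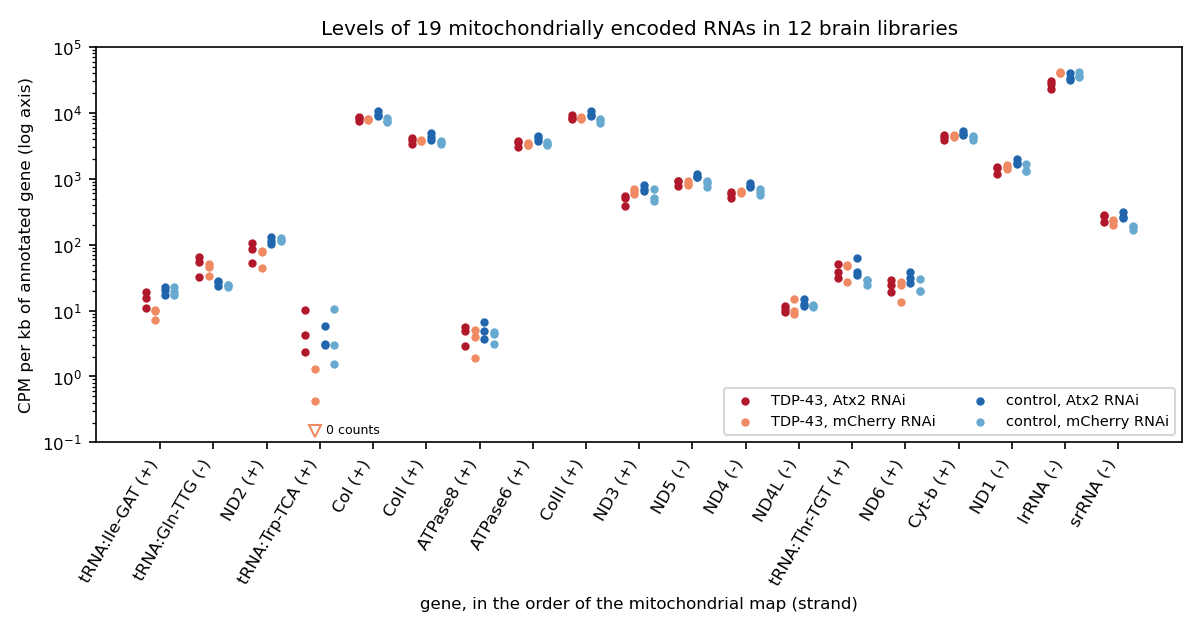
Level of each of the 19 tested mitochondrial RNAs in the 12 libraries, in CPM per kb of annotated gene on a log axis, in the order of the map with the coding strand in brackets; each point is a library and colours give the group. The lrRNA lies highest at a mean of 35225 CPM per kb, and the open triangle marks tRNA-Trp in replicate 2 of TDP-43 with mCherry RNAi, which had a count of 0 and is not on the scale.

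Levels per length spanned about 4 orders of magnitude along the same genome. By counts lrRNA ranked 1 among all genes in every library, and nuclear genes were not scaled by length here. Among mitochondrial genes scaled by length, the lrRNA (mitochondrial positions 12735 to 14058, minus strand, dm6 coordinates from the Ensembl annotation) stood highest, at 35225 ± 6106 CPM per kb (SD over 12 libraries). CoIII (4736 to 5524, plus strand) and CoI (1474 to 3009, plus strand) came next at 8534 ± 941 and 8440 ± 960.4 CPM per kb, which do not differ beyond their spread. Cyt-b (10499 to 11635, plus strand) had 4444 ± 383 CPM per kb, CoII (3083 to 3767, plus strand) 3866 ± 445 and ATPase6 (4062 to 4736, plus strand) 3584 ± 401. Their spreads over the 12 libraries overlapped, but within every library Cyt-b lay above CoII and CoII above ATPase6. Complex I subunits were lower, with ND1 (11721 to 12659, minus strand) at 1538 ± 221 CPM per kb, ND5 (6409 to 8125, minus) at 918 ± 131, ND4 (8207 to 9545, minus) at 662 ± 101 and ND3 (5608 to 5961, plus) at 599 ± 124. ND2 (240 to 1263, plus) had 96.0 ± 28.1 CPM per kb, ND6 (9971 to 10495, plus) 25.2 ± 6.64 and ND4L (9545 to 9835, minus) 11.7 ± 1.90. The srRNA (14131 to 14916, minus) stood at 235 ± 44.0 CPM per kb although it shares its strand with, and lies next to, the lrRNA.

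These levels are of RNAs caught by poly(A) selection, and how A tails differ between genes was not measured. ATPase8 (3907 to 4068, plus), which shares 7 bases with ATPase6, had 4.31 ± 1.27 CPM per kb, and ND4L, which shares 1 base with ND4, was also far below its neighbour. The rule by which reads touching 2 genes were counted is not stated in these sources, so the levels of both small genes are uncertain. Among the 4 tested tRNAs, tRNA-Thr (9838 to 9902, plus) and tRNA-Gln (97 to 165, minus) had 38.5 ± 11.6 and 36.0 ± 14.2 CPM per kb. The tRNA-Ile (1 to 65, plus) and tRNA-Trp (1264 to 1329, plus) had 16 ± 5.32 and 3.80 ± 3.45 CPM per kb. The tRNA-Trp shares 8 bases with tRNA-Cys on the other strand, and its counts are uncertain for the same reason. These 4 genes are 65 to 69 bases long, shorter than the reads of 150 bases. Whether their counts came from tRNAs or from longer precursors was not tested.

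The lrRNA, the RNA of the large subunit of the mitochondrial ribosome, was present at 40537, 30425 and 36371 CPM in the 3 TDP-43 libraries with Atx2 RNAi and at 53775, 54593 and 54055 CPM in the 3 TDP-43 libraries with mCherry RNAi. In control libraries it had 53054, 41777 and 45444 CPM with Atx2 RNAi, against 48644, 45783 and 55200.5 CPM with mCherry RNAi. All 3 TDP-43 libraries with Atx2 RNAi lay below every other library, whereas the control groups overlapped. The srRNA, the RNA of the small subunit, had 218, 176 and 214 CPM in TDP-43 libraries with Atx2 RNAi, against 183, 179 and 157 CPM with mCherry RNAi, and these overlapped. In control libraries the srRNA had 248, 208 and 202 CPM with Atx2 RNAi, against 149, 133 and 146 CPM with mCherry RNAi. Every control library with Atx2 RNAi lay above every control library with mCherry RNAi for the srRNA.

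**Figure D2:**
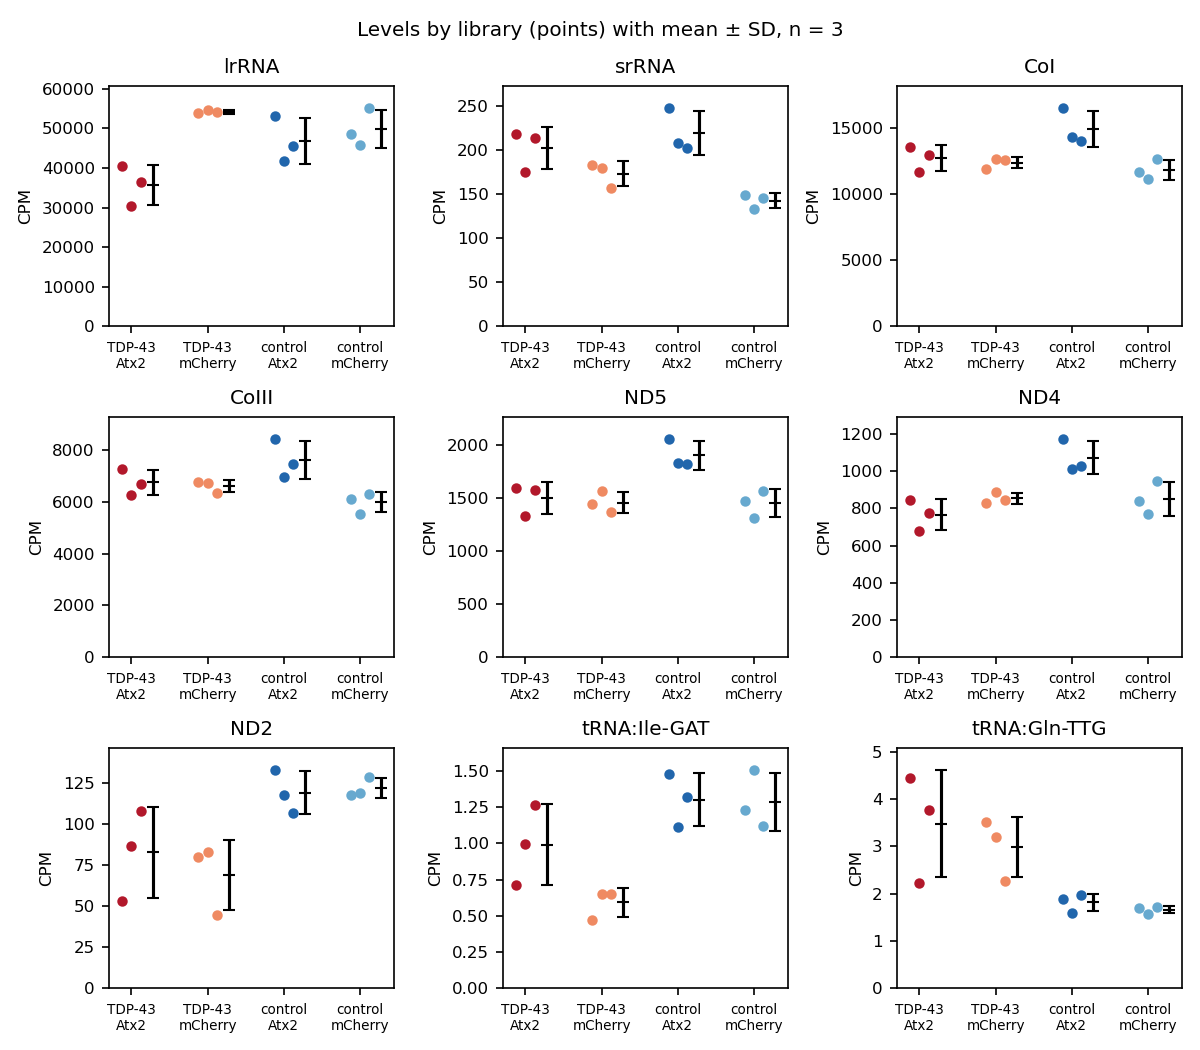
Levels in CPM of 9 mitochondrial RNAs in each library (points), with the mean ± SD of each group of 3, in separate panels that all start at 0. For lrRNA the 3 TDP-43 libraries with Atx2 RNAi lie between 30425 and 40537 CPM, below all 9 others, and for ND4 and ND5 the 3 control libraries with Atx2 RNAi lie above all 9 others.

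The complex IV subunit CoI had 13527, 11668 and 12956 CPM in TDP-43 libraries with Atx2 RNAi and 11889.5, 12614 and 12603 CPM in TDP-43 libraries with mCherry RNAi. It had 16511, 14313 and 14008 CPM in control libraries with Atx2 RNAi, against 11678, 11149 and 12651 CPM with mCherry RNAi. The 3 control libraries with Atx2 RNAi thus held the 3 highest values of the 12. CoIII followed the same order within control brains, at 8419, 6966 and 7444 CPM with Atx2 RNAi, against 6097, 5537 and 6298 CPM with mCherry RNAi. Its TDP-43 libraries had 6270.4 to 7252 CPM with Atx2 RNAi and 6347 to 6765 CPM with mCherry RNAi. Of these 6, replicate 1 of TDP-43 with Atx2 RNAi (7252 CPM) alone reached into the range of the control libraries with Atx2 RNAi. CoII averaged 2564 ± 267 CPM in TDP-43 brains with Atx2 RNAi, 2606 ± 64.2 in TDP-43 brains with mCherry RNAi, 2985 ± 399.7 in control brains with Atx2 RNAi and 2438 ± 164 in control brains with mCherry RNAi (SD, n = 3 each).

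ND4, ND5 and ND1, complex I subunits on the minus strand, showed the control brains with Atx2 RNAi at the top. ND4 had 846, 678 and 777 CPM in TDP-43 libraries with Atx2 RNAi and 829, 886 and 848 CPM in TDP-43 libraries with mCherry RNAi. In control libraries ND4 had 1174, 1013 and 1029.8 CPM with Atx2 RNAi, against 838, 769 and 949 CPM with mCherry RNAi. ND5 had 1597, 1326 and 1572 CPM in TDP-43 libraries with Atx2 RNAi and 1438, 1563 and 1363 CPM in TDP-43 libraries with mCherry RNAi. In control libraries ND5 had 2055, 1825 and 1816 CPM with Atx2 RNAi, against 1474, 1310.2 and 1568 CPM with mCherry RNAi. ND1 had 1368, 1128 and 1423 CPM in TDP-43 libraries with Atx2 RNAi, against 1871, 1584 and 1642 CPM in control libraries with Atx2 RNAi. For these 3 genes no control library with Atx2 RNAi fell into the range of the TDP-43 libraries, under either hairpin. ND4L, also on the minus strand, did overlap, at 3.47 to 4.35 CPM in control libraries with Atx2 RNAi and 2.60 to 4.35 CPM in TDP-43 libraries with mCherry RNAi.

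ND3 and ND2, complex I subunits on the plus strand, had patterns of their own. ND3 had 191, 135 and 181 CPM in TDP-43 libraries with Atx2 RNAi and 206, 245 and 229 CPM in TDP-43 libraries with mCherry RNAi. In control libraries ND3 had 287, 228 and 251 CPM with Atx2 RNAi, against 179.7, 162 and 252 CPM with mCherry RNAi, and replicate 3 with mCherry RNAi was the highest of its 3. ND2 had 53.5, 86.7 and 108 CPM in TDP-43 libraries with Atx2 RNAi and 79.8, 83.3 and 44.6 CPM in TDP-43 libraries with mCherry RNAi. In control libraries ND2 had 133, 118 and 107 CPM with Atx2 RNAi, against 118, 119 and 129 CPM with mCherry RNAi. Its spread within TDP-43 groups (SD 27.6 CPM with Atx2 RNAi and 21.4 CPM with mCherry RNAi) was larger than within control groups (SD 13.3 and 5.98 CPM).

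The remaining mRNAs are given by their means. Cyt-b, the complex III subunit, averaged 4830.2 ± 354 CPM in TDP-43 brains with Atx2 RNAi, 5066 ± 186 in TDP-43 brains with mCherry RNAi, 5548 ± 470.2 in control brains with Atx2 RNAi and 4768 ± 315 in control brains with mCherry RNAi, and it had the lowest variation over the 12 libraries of the 19 genes, at 8.6%. ATPase6 averaged 2344 ± 245 CPM in TDP-43 brains with Atx2 RNAi, 2264 ± 99.0 in TDP-43 brains with mCherry RNAi, 2766 ± 263 in control brains with Atx2 RNAi and 2304 ± 141 in control brains with mCherry RNAi. ND6 averaged 12.7 ± 2.54 CPM in TDP-43 brains with Atx2 RNAi, 11.3 ± 3.83 in TDP-43 brains with mCherry RNAi, 16.7 ± 3.32 in control brains with Atx2 RNAi and 12.1 ± 2.97 in control brains with mCherry RNAi. ATPase8 was between 0.312 and 1.07 CPM in every library, and ND4L between 2.60 and 4.35 CPM.

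The tRNA-Ile had 0.710, 0.997 and 1.26 CPM in TDP-43 libraries with Atx2 RNAi and 0.473, 0.650 and 0.653 CPM in TDP-43 libraries with mCherry RNAi. In control libraries it had 1.47, 1.11 and 1.32 CPM with Atx2 RNAi, against 1.23, 1.51 and 1.12 CPM with mCherry RNAi. The 3 lowest values of the 12 were those of TDP-43 with mCherry RNAi. The tRNA-Gln, 31 bases away on the other strand, had 4.44, 2.23 and 3.77 CPM in TDP-43 libraries with Atx2 RNAi and 3.51, 3.19 and 2.27 CPM in TDP-43 libraries with mCherry RNAi. In control libraries tRNA-Gln had 1.88, 1.60 and 1.96 CPM with Atx2 RNAi, against 1.69, 1.57 and 1.71 CPM with mCherry RNAi. All 6 TDP-43 libraries lay above all 6 control libraries for tRNA-Gln. The tRNA-Trp had 5, 28 and 11 counts in TDP-43 libraries with Atx2 RNAi, 4, 0 and 1 in TDP-43 libraries with mCherry RNAi, 16, 6 and 7 in control libraries with Atx2 RNAi and 6, 21 and 4 in control libraries with mCherry RNAi. Single libraries set its group means, and 3 counts correspond to 0.0645 to 0.104 CPM here.

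Of the 8 tRNAs below the filter, tRNA-Tyr had at most 15 counts in a library, tRNA-Pro at most 10, tRNA-Cys at most 9 and tRNA-Ser-TGA at most 7. The tRNA-Phe reached 3 counts, tRNA-Met 2, and tRNA-Ala and tRNA-Glu 1. The 10 tRNAs with no count were those for Leu (both genes), Lys, Asp, Gly, Arg, Asn, His, Val and Ser-GCT. A count of 0 in a library allows a level of up to 0.0645 to 0.104 CPM, from counting error alone.

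With mCherry RNAi, TDP-43 brains were compared with control brains, a difference of transgene and strain together. The srRNA and tRNA-Gln were higher, tRNA-Ile and tRNA-Trp were lower, and none of the 13 mRNAs was called. Of 19 mitochondrial genes, 2 were called higher and 2 lower, where 37.6% of all genes tested were called either way (19.2% higher and 18.3% lower). The srRNA had a log2 fold change of 0.28 ± 0.10 (SE; edgeR adjusted p = 0.0488), and tRNA-Gln one of 0.85 ± 0.26 (edgeR adjusted p = 0.0216). The tRNA-Ile fell by 1.12 ± 0.29 on the log2 scale (edgeR adjusted p = 0.0104) and tRNA-Trp fell by 2.86 ± 0.99 (edgeR adjusted p = 0.0398). This fitted value for tRNA-Trp rests on 0 to 4 counts in the TDP-43 libraries. The value for tRNA-Ile rests on 22, 21 and 23 counts in the TDP-43 libraries, against 37, 45 and 44 in the control libraries.

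Of the 13 mRNAs, 0 were called by edgeR, 1 had an unadjusted p under 0.05 and DESeq2 called that 1 (of all 10738 genes, 5023 and 4331). This was ND2, which had a log2 fold change of -0.82 ± 0.28 (edgeR adjusted p = 0.0510), and its 3 TDP-43 libraries lay below its 3 control libraries. CoI had a log2 fold change of 0.06 with a 95% interval of -0.10 to 0.23, ND4 one of 0.00 (-0.20 to 0.21) and lrRNA one of 0.12 (-0.13 to 0.37). The genes whose libraries did not overlap and were lower in TDP-43 were ND2, tRNA-Ile and tRNA-Trp, and those that were higher were CoIII, srRNA and tRNA-Gln. These 6 of 19 stand against 46.4% of all genes that did not overlap. For tRNA-Trp the highest TDP-43 and the lowest control library both had 4 counts, so its separation rests on depth scaling. Those that were lower lie on the plus strand between positions 1 and 1329, and a pattern by position was not tested. The call of tRNA-Ile held in all 19 alternatives (adjusted p up to 0.0435). That of srRNA was lost in 10 of 19, at adjusted p up to 0.150, namely without the filter, without any 1 of the 3 control libraries with mCherry RNAi, and without replicate 1 or 2 of TDP-43 with mCherry RNAi, 2 or 3 of control with Atx2 RNAi or 1 or 3 of TDP-43 with Atx2 RNAi. The tRNA-Trp fell by 1.74 (adjusted p = 0.222) without replicate 2 of control with mCherry RNAi, and also lost its call without replicate 2 or 3 of TDP-43 with mCherry RNAi, 2 or 3 of control with Atx2 RNAi or 3 of TDP-43 with Atx2 RNAi (adjusted p from 0.0502 to 0.105). The call of tRNA-Gln was lost without replicate 1 or 2 of either group (adjusted p from 0.0543 to 0.0709).

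With TDP-43 present, brains with Atx2 RNAi were compared with brains with mCherry RNAi, a comparison that the series title frames as a rescue. The lrRNA was the one mitochondrial gene called, and it was lower with Atx2 RNAi. Of 19 genes, 0 were called higher and 1 lower, where 14.0% of all genes tested were called (7.68% higher and 6.36% lower). At an unadjusted p under 0.05 edgeR had 3 higher and 2 lower, where 3057 of all 10738 genes were under it. DESeq2 called 1 higher (tRNA-Trp) and 1 lower, where it called 1027 of all genes higher and 948 lower. The lrRNA had a log2 fold change of -0.60 ± 0.11 (edgeR adjusted p = 0.00650), with a 95% interval of -0.85 to -0.35. Its call held in all 19 alternatives, at adjusted p up to 0.0222, and its log2 fold change ran from -0.68 to -0.50 over them. The srRNA had a log2 fold change of 0.22 ± 0.10 (edgeR adjusted p = 0.172), of the other sign.

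The mRNAs did not follow lrRNA in TDP-43 brains. Their log2 fold changes were small, with 7 of 13 positive and 6 negative and a median of 0.03. CoI had 0.04 ± 0.07 (95% interval -0.12 to 0.20), ND5 0.04 ± 0.09 (-0.15 to 0.23) and CoIII 0.03 ± 0.08 (-0.14 to 0.19). ND3 had the lowest value, -0.42 ± 0.18 (edgeR adjusted p = 0.167), and its libraries did not overlap. Together with lrRNA, which was lower, and tRNA-Ile and tRNA-Trp, which were higher, it made 4 of 19 genes without overlap, where 32.7% of all genes had none. The tRNA-Trp had a log2 fold change of 3.04 ± 0.97 (edgeR adjusted p = 0.0594) and tRNA-Ile one of 0.75 ± 0.29 (edgeR adjusted p = 0.114). The count of mitochondrial calls became 2 with DESeq2 or without replicate 1 of TDP-43 with mCherry RNAi or replicate 2 of control with mCherry RNAi, each time through tRNA-Trp.

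In control brains, Atx2 RNAi was compared with mCherry RNAi to see what the hairpin does without TDP-43. CoI, CoIII, ND5 and srRNA were called higher with Atx2 RNAi, and no mitochondrial gene was called lower. These 4 of 19 calls stand against 6.17% of all genes tested (3.24% higher and 2.93% lower). Mitochondrial RNAs come from shared precursors, so their calls, signs and overlaps are not independent of each other, in this or any other comparison. Of the control libraries with Atx2 RNAi, replicate 1 was the highest for CoI, CoIII, ND5 and srRNA alike. At an unadjusted p under 0.05 edgeR had 10 higher and 0 lower, where 2106 of all 10738 genes were under it. DESeq2 called 9 higher and 0 lower, where it called 457 of all genes higher and 529 lower. Of the 19 genes, 16 had a positive log2 fold change, with a median of 0.32, where the median of all genes was 0.00. The libraries of 10 genes did not overlap, all with the higher values under Atx2 RNAi, where 25.7% of all genes did not overlap.

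The largest called change in control brains was that of srRNA, 0.62 ± 0.10 on the log2 scale (edgeR adjusted p = 0.00510), and this call held in all 19 alternatives with adjusted p up to 0.0218. ND5 had a log2 fold change of 0.39 ± 0.09 (edgeR adjusted p = 0.0244), CoIII one of 0.35 ± 0.08 (edgeR adjusted p = 0.0199) and CoI one of 0.34 ± 0.07 (edgeR adjusted p = 0.0199). ND4 had 0.33 ± 0.09 (edgeR adjusted p = 0.0580), ND1 0.34 ± 0.11 (edgeR adjusted p = 0.116) and ATPase6 0.26 ± 0.08 (edgeR adjusted p = 0.0972), and the lrRNA had -0.09 ± 0.11 (95% interval -0.34 to 0.16; edgeR adjusted p = 0.712). The calls of CoI, CoIII and ND5 were each lost without replicate 1 or 2 of control with mCherry RNAi or replicate 1 of control with Atx2 RNAi, and those of CoIII and ND5 also without replicate 3 of control with Atx2 RNAi (adjusted p from 0.0556 to 0.0907). Without 1 of these libraries the count of mitochondrial calls was 1 or 2.

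**Figure D3:**
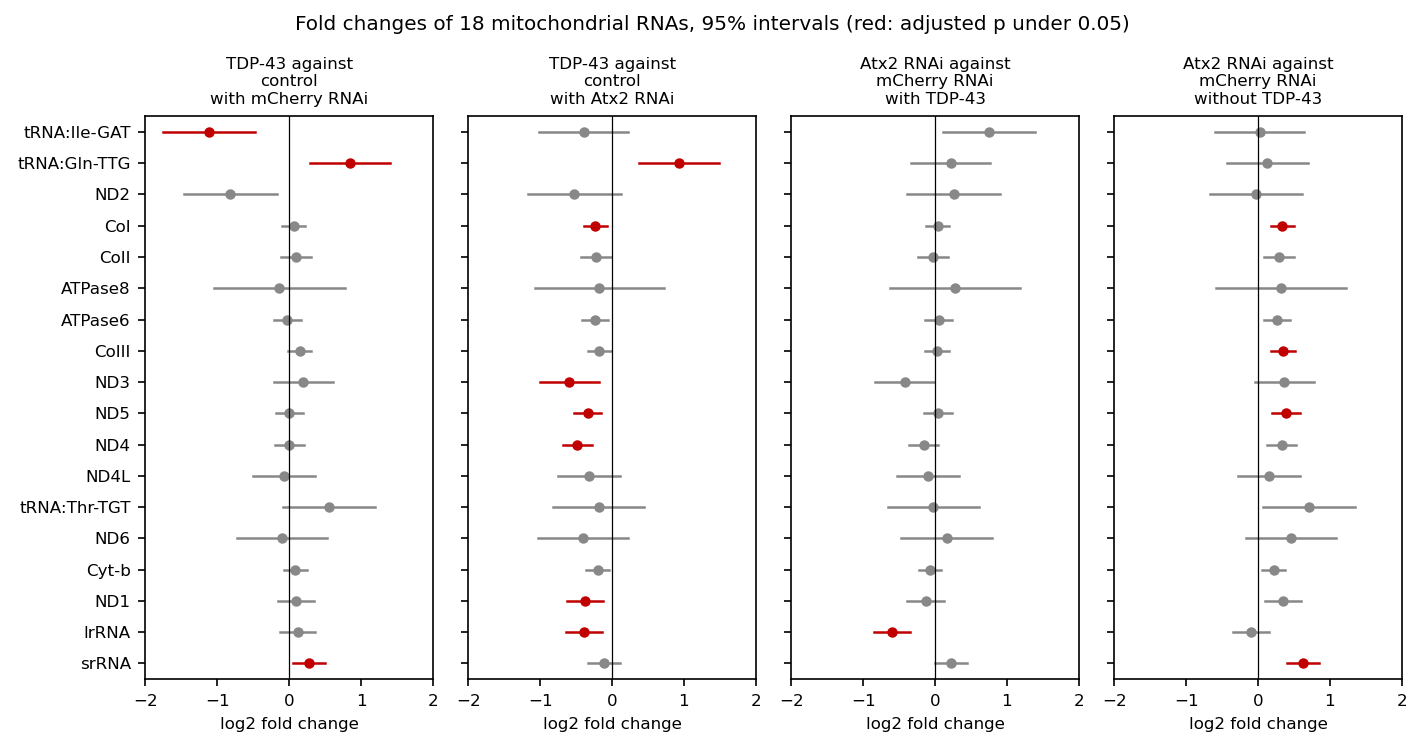
Log2 fold changes (x axis) with 95% intervals of 18 tested mitochondrial RNAs in map order (y axis) in the 4 comparisons, with calls in red; tRNA-Trp, at -2.86 in the first panel, lies beyond the axis and is left out. In the panel of TDP-43 against control with Atx2 RNAi all 13 mRNAs lie left of 0, and in the panel of Atx2 RNAi against mCherry RNAi without TDP-43 all mRNAs but ND2 lie right of 0.

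With Atx2 RNAi, TDP-43 brains were compared with control brains. The mRNAs of CoI, ND1, ND3, ND4 and ND5 and the lrRNA were lower with TDP-43, and tRNA-Gln was higher. Of 19 genes, 1 was called higher and 6 lower, where 22.5% of all genes tested were called (12.1% higher and 10.4% lower). At an unadjusted p under 0.05 edgeR had 11 of the 19, where 3668 of all 10738 genes were under it. DESeq2 called 1 higher and 8 lower, where it called 1499 of all genes higher and 1230 lower. All 13 mRNAs had negative log2 fold changes, from -0.59 to -0.18, and the median of the 19 genes was -0.24. These are not 13 independent results, as the RNAs share precursors and libraries. Of the 9 genes without overlap, 8 were lower with TDP-43, where 43.8% of all genes did not overlap.

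ND4 had a log2 fold change of -0.48 ± 0.09 (edgeR adjusted p = 0.00290), and this call held in all 19 alternatives with adjusted p up to 0.0113. ND3 had -0.59 ± 0.18 (edgeR adjusted p = 0.0459), ND5 -0.34 ± 0.09 (edgeR adjusted p = 0.0157), ND1 -0.38 ± 0.11 (edgeR adjusted p = 0.0371) and CoI -0.23 ± 0.07 (edgeR adjusted p = 0.0403). The lrRNA had -0.39 ± 0.11 (edgeR adjusted p = 0.0325), and tRNA-Gln had 0.94 ± 0.26 (edgeR adjusted p = 0.0212). Same-numbered libraries deviated together here, though the labels give no pairing. With the replicate number as a block, ATPase6 (-0.24, adjusted p = 0.0108) and CoII (-0.22, adjusted p = 0.04999) were called as well, for 9 calls. Without replicate 1 of control with Atx2 RNAi, 1 mitochondrial call was left, 2 without replicate 2 of TDP-43 with Atx2 RNAi, 3 without its replicate 3 and 4 without replicate 3 of control with Atx2 RNAi. CoI, ND1, ND5 and lrRNA each lost their call without replicate 1 of control with Atx2 RNAi or replicate 2 of TDP-43 with Atx2 RNAi (adjusted p from 0.0569 to 0.147). CoI and lrRNA kept their call in 13 of the 19 alternatives, ND1 in 14 and ND5 in 17, and raw library totals were among the losses of CoI, ND1 and lrRNA (adjusted p from 0.0509 to 0.0882). ND3 kept its call in 6 of 19 alternatives, and tRNA-Gln lost it in 4, up to adjusted p = 0.0997.

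The interaction asks whether the effect of the Atx2 hairpin differs between TDP-43 and control brains. None of the 19 genes was called in it by edgeR (0 called, with 11 at an unadjusted p under 0.05), where 0.428% of all genes tested were called. Of all 10738 genes, 1636 had an unadjusted p under 0.05. DESeq2 called 9, all negative (CoI, CoIII, Cyt-b, ND1, ND3, ND4, ND5, lrRNA and srRNA), where it called 533 of all genes (386 higher and 147 lower). ND4 had the smallest adjusted p in edgeR, with an interaction of -0.49 ± 0.13 on the log2 scale (edgeR adjusted p = 0.120; 95% interval -0.77 to -0.20), and lrRNA had -0.50 ± 0.16 (edgeR adjusted p = 0.176). Of the 13 mRNAs, 12 had a negative value. A difference between the hairpin's effects is therefore not shown at the threshold used, while DESeq2 places 9 of the genes past it.

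**Figure D4:**
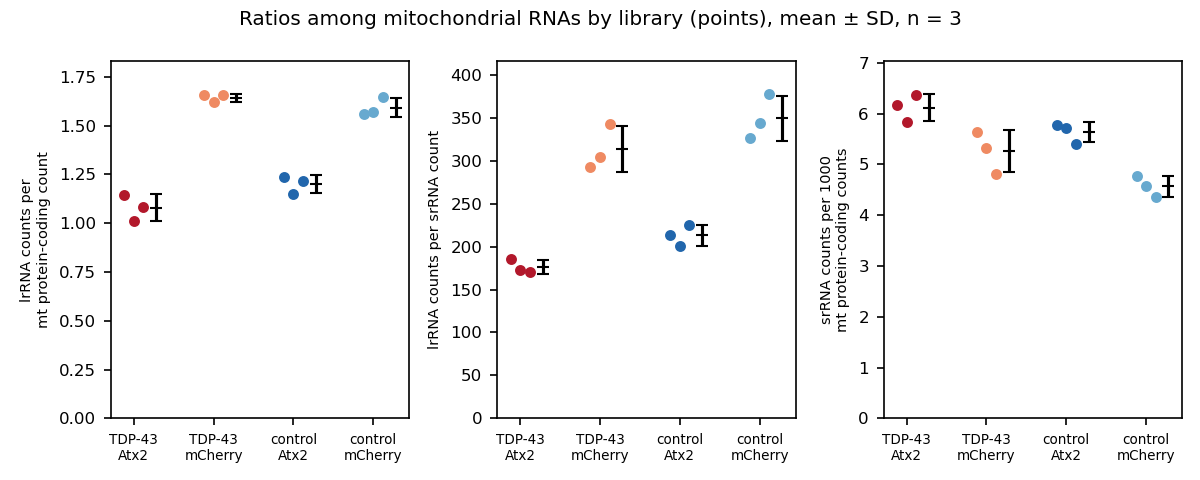
Ratios of counts among mitochondrial RNAs in each library (points) with the mean ± SD of each group of 3: lrRNA per mt protein-coding count, lrRNA per srRNA count and srRNA per 1000 mt protein-coding counts. In the first 2 panels the 6 libraries with Atx2 RNAi (1.01 to 1.23 and 169.9 to 225) lie below the 6 with mCherry RNAi (1.56 to 1.65 and 293 to 378).

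Ratios among mitochondrial RNAs do not depend on the scaling of libraries, and were looked at after the levels had been seen. There were 1.15, 1.01 and 1.08 lrRNA counts per mt protein-coding count in TDP-43 libraries with Atx2 RNAi, against 1.65, 1.62 and 1.65 with mCherry RNAi. In control libraries there were 1.23, 1.15 and 1.22 with Atx2 RNAi, against 1.56, 1.57 and 1.65 with mCherry RNAi. All 6 libraries with Atx2 RNAi lay below all 6 with mCherry RNAi, with or without TDP-43. The lrRNA per srRNA count averaged 176 ± 8.38 in TDP-43 brains with Atx2 RNAi, 314 ± 26.3 in TDP-43 brains with mCherry RNAi, 213 ± 12.2 in control brains with Atx2 RNAi and 349 ± 26.4 in control brains with mCherry RNAi (SD, n = 3 each), split in the same way. Accordingly lrRNA made up 50.1% to 55.1% of all mitochondrial counts in the 6 libraries with Atx2 RNAi and 60.8% to 62.2% in the 6 with mCherry RNAi.

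These ratios show that lrRNA and the other mitochondrial RNAs moved unequally under the hairpin, not which of them moved. The srRNA per 1000 mt protein-coding counts averaged 6.12 ± 0.272 in TDP-43 brains with Atx2 RNAi, 5.26 ± 0.415 in TDP-43 brains with mCherry RNAi, 5.63 ± 0.199 in control brains with Atx2 RNAi and 4.57 ± 0.208 in control brains with mCherry RNAi. Nuclear rRNA genes, whose RNA lacks a long A tail, held 0.0126% to 0.0273% of counts in TDP-43 libraries with Atx2 RNAi, 0.0154% to 0.0217% in TDP-43 libraries with mCherry RNAi, 0.00743% to 0.0246% in control libraries with Atx2 RNAi and 0.00963% to 0.0109% in control libraries with mCherry RNAi. These did not separate the hairpins within TDP-43 brains. With mCherry RNAi, where srRNA was called higher in TDP-43 brains, the shares of the 3 TDP-43 libraries all lay above those of the 3 control libraries. The part of poly(A) selection in the lrRNA and srRNA values was not tested.

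Within the mRNAs, CoI held 38.5% ± 0.250 of mt protein-coding counts in TDP-43 brains with Atx2 RNAi, 37.5% ± 1.00 in TDP-43 brains with mCherry RNAi, 38.4% ± 0.928 in control brains with Atx2 RNAi and 37.8% ± 0.449 in control brains with mCherry RNAi. ND4 held 2.32% ± 0.0710 in TDP-43 brains with Atx2 RNAi, 2.59% ± 0.0381 in TDP-43 brains with mCherry RNAi, 2.76% ± 0.0275 in control brains with Atx2 RNAi and 2.72% ± 0.101 in control brains with mCherry RNAi. In TDP-43 brains with Atx2 RNAi no library reached the range of the other groups (highest 2.39%, against 2.55% as the lowest elsewhere). The 4 genes on the minus strand together held 10.8% ± 0.410 in TDP-43 brains with Atx2 RNAi, 11.4% ± 0.411 in TDP-43 brains with mCherry RNAi, 12.02% ± 0.148 in control brains with Atx2 RNAi and 11.6% ± 0.470 in control brains with mCherry RNAi.

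Marker sums of other cell types differed between libraries. Fat body markers (Yp1 to Yp3, Lsp2 and others, 10 in all) summed to 2396 to 5205 CPM in TDP-43 libraries with Atx2 RNAi, 2832 to 10673 in TDP-43 libraries with mCherry RNAi, 1380 to 1624 in control libraries with Atx2 RNAi and 1471 to 2992 in control libraries with mCherry RNAi. With mCherry RNAi, 5 of the 10 were called higher and 1 lower in TDP-43 than in control brains (all genes 19.2% and 18.3%), and the members did not move together. The yolk protein gene Yp1 averaged 2398 ± 1458 CPM in TDP-43 brains and 1.63 ± 0.630 CPM in control brains (SD, n = 3 each), with Yp2, Yp3, fit and FASN2 also called higher. The larval storage protein gene Lsp1beta was called lower, at 1.48 ± 0.748 CPM in TDP-43 brains and 101 ± 47.7 CPM in control brains (edgeR adjusted p = 4.39e-05), and Lsp2, AkhR, apolpp and Fbp1 were not called (edgeR adjusted p from 0.145 to 0.996). Muscle markers (12) summed to 168 to 311 CPM in TDP-43 brains with Atx2 RNAi, 195 to 642 in TDP-43 brains with mCherry RNAi, 82.6 to 143 in control brains with Atx2 RNAi and 125 to 266 in control brains with mCherry RNAi. Photoreceptor markers (9) summed to 1853 to 3738 CPM in TDP-43 brains with Atx2 RNAi, 1465 to 3569 in TDP-43 brains with mCherry RNAi, 1815 to 5219 in control brains with Atx2 RNAi and 1570 to 2548 in control brains with mCherry RNAi. Gut and salivary enzymes (7) summed to 17.1 to 72.1 CPM except in replicate 2 of TDP-43 with mCherry RNAi (1321 CPM) and replicate 2 of TDP-43 with Atx2 RNAi (664 CPM). No marker was at 0 in all libraries. Glial markers (7) summed to 3091 to 3246 CPM in TDP-43 libraries with Atx2 RNAi, 3333 to 3591 in TDP-43 libraries with mCherry RNAi, 3553 to 3576 in control libraries with Atx2 RNAi and 3669 to 4163 in control libraries with mCherry RNAi. Within TDP-43 brains and within control brains, the glial sums were lower with Atx2 RNAi, with no overlap between hairpins. Between TDP-43 and control brains, the control sums with Atx2 RNAi lay within the range of the TDP-43 sums with mCherry RNAi. The members did not move together. In TDP-43 brains with Atx2 RNAi, 1 of the 7 was called higher (repo, 0.25, edgeR adjusted p = 0.0277) and 1 lower (Gs2, -0.28, edgeR adjusted p = 0.00194), where all genes had 7.68% and 6.36%. In control brains 0 were called higher and 1 lower (repo, -0.35, edgeR adjusted p = 0.0108), where all genes had 3.24% and 2.93%. In TDP-43 against control brains with mCherry RNAi, 2 glial markers were called higher and 4 lower (all genes 19.2% and 18.3%). With Atx2 RNAi, 3 were higher and 3 lower (all genes 12.1% and 10.4%). Of the 6 neuronal markers, CadN, Rbp and nSyb were called lower under both hairpins and 0 higher. Of the 12 muscle markers, 4 were called higher with mCherry RNAi and 1 with Atx2 RNAi. The part of these cell types in the mitochondrial results was not tested. Hemocyte markers (5) summed to 414 to 667 CPM and male reproductive tract markers (4) to 14.7 to 231 CPM over the libraries.

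Of 9 tested genes for mtDNA replication and maintenance, 2 were called higher in TDP-43 than in control brains with mCherry RNAi (all genes 19.2%): mtDNA-helicase, the replicative helicase, at 3.36 ± 0.375 CPM against 1.80 ± 0.413 (log2 fold change 0.90, edgeR adjusted p = 0.00826), and tam, the catalytic subunit of the mtDNA polymerase, at 7.90 ± 0.422 CPM against 6.14 ± 0.316 (0.36, edgeR adjusted p = 0.0453). Lon, a matrix protease, was lower by 0.22 on the log2 scale with Atx2 RNAi in TDP-43 brains (edgeR adjusted p = 0.00299), by 0.15 in control brains (edgeR adjusted p = 0.0349), and by 0.14 with TDP-43 under Atx2 RNAi (edgeR adjusted p = 0.0200), with no other call in those 3 comparisons (all genes called either way 14.0%, 6.17% and 22.5%). The list's median log2 fold change was 0.09 and 0.08 for TDP-43 under the mCherry and the Atx2 hairpin, and -0.10 and -0.01 for the Atx2 hairpin in TDP-43 and in control brains. TFAM, which packages mtDNA and activates its transcription, was called in none, with log2 fold changes from -0.07 to 0.08 (TFAM and mtRNApol are named after their values were seen).

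Of 16 tested genes for mitochondrial transcription, RNA processing and decay, at most 2 were called in a comparison, where 6.17% to 37.6% of all genes were called. The scu gene, whose product is also a subunit of mitochondrial RNase P, was higher in TDP-43 brains with mCherry RNAi (0.49, edgeR adjusted p = 0.0233), and mTerf5, of the transcription termination factor family, was lower with Atx2 RNAi in TDP-43 brains (-0.39, edgeR adjusted p = 0.0351). In control brains bsf, a fly relative of LRPPRC that stabilises mitochondrial mRNAs, was lower with Atx2 RNAi (-0.21, edgeR adjusted p = 0.0244). With Atx2 RNAi, TDP-43 brains had higher bsf (0.15, edgeR adjusted p = 0.0475) and lower mtTFB2, a factor that starts mitochondrial transcription, at 5.15 ± 0.305 CPM against 7.48 ± 0.527 (-0.54, edgeR adjusted p = 0.0202). The polymerase gene mtRNApol was called in no comparison, with log2 fold changes from -0.01 to 0.05. Of 8 tested translation factors, 1 was called lower with Atx2 RNAi in TDP-43 brains and 2 in control brains (all genes 6.36% and 2.93%). With TDP-43 under Atx2 RNAi, 1 was called higher (all genes 12.1%). The release factor mRF1 was lower with Atx2 RNAi in TDP-43 brains (-0.43, edgeR adjusted p = 0.0148) and in control brains (-0.37, edgeR adjusted p = 0.0480). The elongation factor mEFG1 was lower with Atx2 RNAi in control brains (-0.21, edgeR adjusted p = 0.0462) and higher with TDP-43 under Atx2 RNAi (0.17, edgeR adjusted p = 0.0476).

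Nuclear genes of the respiratory chain and ATP synthase, whose products assemble with the mitochondrially encoded subunits, numbered 76 tested. With mCherry RNAi, TDP-43 brains had 4 higher and 8 lower (all genes 19.2% and 18.3%), among them blw, the alpha subunit of the ATP synthase, at 777 ± 34.0 CPM against 979 ± 40.0 (-0.33, edgeR adjusted p = 0.000169) and Cyt-c1 at 221 ± 16.7 CPM against 284 ± 9.98 (-0.36, edgeR adjusted p = 0.000443). With Atx2 RNAi, TDP-43 brains had 2 higher and 9 lower (all genes 12.1% and 10.4%), among them Cyt-c1 (-0.32, edgeR adjusted p = 0.00155), blw (-0.22, edgeR adjusted p = 0.00425) and ND-30 (-0.27, edgeR adjusted p = 0.00537). Atx2 RNAi gave 4 higher and 2 lower in TDP-43 brains (all genes 7.68% and 6.36%) and 4 higher and 2 lower in control brains (all genes 3.24% and 2.93%), where ND-MWFE (0.29, edgeR adjusted p = 0.0196), ND-B14.7 (0.27, edgeR adjusted p = 0.0266) and UQCR-14 (0.25, edgeR adjusted p = 0.0398) were among the higher. The list's median log2 fold change was 0.12 for Atx2 RNAi in control brains, where mitochondrial genes had 0.32, and 0.05 in TDP-43 brains. It was -0.02 for TDP-43 with mCherry RNAi and -0.05 for TDP-43 with Atx2 RNAi, where mitochondrial genes had 0.06 and -0.24.

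Mitochondrial ribosomal protein genes, 72 of them tested, work with lrRNA and srRNA. TDP-43 with mCherry RNAi had 3 higher and 4 lower (all genes 19.2% and 18.3%). Atx2 RNAi had 3 higher and 3 lower in TDP-43 brains (all genes 7.68% and 6.36%) and 2 higher and 1 lower in control brains (all genes 3.24% and 2.93%). TDP-43 with Atx2 RNAi had 0 called by edgeR (all genes 22.5%), with 9 at an unadjusted p under 0.05 and 1 called by DESeq2 (of all 10738 genes, 3668 and 2729). In TDP-43 brains mRpL24, of the large subunit that holds lrRNA, was higher with Atx2 RNAi (0.36, edgeR adjusted p = 0.00288), and mRpS5, of the small subunit, was lower (-0.23, edgeR adjusted p = 0.00777). The list's median lay between -0.05 and 0.06 in the 4 comparisons. Comparisons that share a group of libraries are not independent, and these values are set side by side only.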

How the data were processed

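Poly(A) RNA from brains was sequenced with a stranded kit, in 12 libraries. The authors deposited 1 table of raw counts per gene, whole numbers with no normalisation. Trim Galore, STAR 2.7.3a, SAMtools, DESeq2 and the build dm6 are named per the submitters' processing notes. The assignment of reads to genes, with its strand setting, is not stated in these sources. All 12 columns were mapped to a library, and 0 columns belonged to no sample.

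The test was edgeR 4.0.16 under R 4.3.3 (glmQLFit robust and glmQLFTest, TMM factors 0.962 to 1.03, 1 mean per group, 8 residual degrees of freedom). The filterByExpr step left 10738 genes and removed 6824. P-values were adjusted over all genes tested, and calls were made below 0.05. Every mt: gene may be named; from each nuclear list, up to 4 called members per direction by smallest adjusted p, and up to 2 where none is called. Members, lists and tests were chosen with earlier results of these data known. Of the listed symbols 11 had no entry and were not used. Steps were tested on simulated data.

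Alternatives were RLE scaling, scaling over nuclear genes, raw totals, no filter, DESeq2 1.42.0, only the 2 groups compared, a replicate block and each library left out. The labels do not say whether same-numbered libraries share a cross, day or batch, so the block is an alternative only. Replicate numbers deviated together in every pair for the hairpins in TDP-43 brains (correlations 0.187, 0.684 and 0.238) and for TDP-43 under the Atx2 hairpin (0.390, 0.447 and 0.194). They did not in the other 2 comparisons. Shares and ratios come from the deposited counts with no test. Intervals and floors cover counting or model error only, and no genome sequence was used.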

Additional observations from a re-analysis of the deposited data

How the results depend on the processing

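No mitochondrial gene's called fold change changed sign under any of the alternatives run, and 68 of the alternative values for single genes lost a call while 39 gained one. The calls that held in all 19 alternatives were lrRNA with Atx2 RNAi in TDP-43 brains, srRNA with Atx2 RNAi in control brains, ND4 with TDP-43 under Atx2 RNAi and tRNA-Ile with TDP-43 under mCherry RNAi. The last of these rests on 21 to 23 counts in the TDP-43 libraries. For TDP-43 against control with mCherry RNAi, leaving out 1 library gave 1 to 4 mitochondrial and 3205 to 4261 calls over all genes. For Atx2 against mCherry RNAi with TDP-43 it gave 1 to 2 and 731 to 1664, without TDP-43 1 to 6 and 282 to 784, for TDP-43 against control with Atx2 RNAi 1 to 8 and 1616 to 2581, and for the interaction 0 to 0 and 10 to 68 (46 with all libraries). DESeq2 called 2 mitochondrial genes for Atx2 RNAi with TDP-43, 9 without TDP-43 and 9 in the interaction, where it called 1975, 986 and 533 of all genes. For TDP-43 against control it called 5 with mCherry RNAi and 9 with Atx2 RNAi, where it called 4331 and 2729 of all genes. With only the 2 groups in the fit, Atx2 RNAi with TDP-43 gave 911 genes in place of 1508, and TDP-43 with Atx2 RNAi gave 4 mitochondrial calls. Raw library totals gave 3 there, and 1530 higher and 609 lower genes in place of 1294 and 1119. The replicate block gave 7 mitochondrial calls for Atx2 RNAi without TDP-43 (ATPase6, CoII and ND4 in addition), 138 genes in the interaction, and 3 in place of 4 mitochondrial calls for TDP-43 with mCherry RNAi, where tRNA-Trp reached an adjusted p of 0.0565; in these 2 comparisons same-numbered libraries did not all deviate together (correlations 0.132, -0.0935 and 0.482 for TDP-43 with mCherry RNAi and -0.257, -0.0640 and -0.481 for Atx2 RNAi without TDP-43). Apart from the calls named here and above, the block changed no call of a mitochondrial gene. Relative to nuclear counts, mitochondrial genes stood at 9.68% in TDP-43 brains with mCherry RNAi and 8.72% in control brains with mCherry RNAi, protein-coding genes at 3.64%, 3.66%, 4.16% and 3.35% in TDP-43 with Atx2, TDP-43 with mCherry, control with Atx2 and control with mCherry RNAi, and rRNA genes at 6.03% in TDP-43 brains with mCherry RNAi; the smaller denominator sets these. The cause of the other differences was not tested. Depth limits the tRNAs, most of which had few or no counts, and with 3 libraries per group single libraries decide most calls near the threshold.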
